A study of Mus musculus with 4 samples.

Results

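Macrophage-rich spots were described in 2 Visium sections of wounded mouse tissue, 1 of facial skin and 1 of oral mucosa, both from postoperative day 4. They were chosen by a score, the share of a spot's UMIs (unique molecular identifiers, each standing for 1 captured transcript) that fell on C1qa, C1qb, C1qc, Csf1r, Adgre1, Ms4a7 and Mrc1. Among spots with at least 1000 UMIs, the 50 with the highest score were taken in each section, which gave 100 spots of 1461 in the 2 day 4 sections and of 3530 tissue spots in the series. All groups came from wildtype mice and flash-frozen tissue, and the series also held 1 unwounded section of each tissue. With 1 section per group there were no replicates, so no test was run. Every interval below is an exact 95% Poisson or ratio interval, or an approximate one for a difference of log2 ratios. All of them cover counting error only. One Visium spot covers an area in which cells of more than 1 type may lie together, so the 100 spots are places rich in macrophage transcripts and not isolated macrophages.

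Macrophages are phagocytes that clear dead cells and debris from a wound and release signals for repair. C1qa, C1qb and C1qc encode the chains of C1q, the recognition part of the classical complement pathway, which tissue macrophages make and which tags dying cells for uptake. Csf1r is the receptor for the growth factors that keep macrophages alive, Adgre1 encodes the F4/80 antigen, Ms4a7 is a membrane protein of macrophages, and Mrc1 encodes the mannose receptor CD206 of resident macrophages.

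The 3 C1q genes lie side by side on mouse chromosome 4 (mm10, the same build as GRCm38.p6), C1qb at chr4:136880126-136886200, C1qc at chr4:136889801-136892936 and C1qa at chr4:136895916-136898844, and Mrc1 lies at chr2:14229414-14332023. Of the 7 score genes, 4 had a promoter in the RefSeq table (GRCm38.p6), and the 250 bases before the annotated start are shown for C1qb, C1qc and Mrc1, which helped choose the spots and were high together in them. The fourth, Ms4a7, had 2 windows, and neither held the letters searched for below. Capitals mark the letters GAGGAA or, on the other strand, TTCCTC, the core of the box bound by the myeloid factor PU.1, and each sequence runs 5′ to 3′ on the gene's own strand.
C1qb (minus strand, chr4:136886201-136886450): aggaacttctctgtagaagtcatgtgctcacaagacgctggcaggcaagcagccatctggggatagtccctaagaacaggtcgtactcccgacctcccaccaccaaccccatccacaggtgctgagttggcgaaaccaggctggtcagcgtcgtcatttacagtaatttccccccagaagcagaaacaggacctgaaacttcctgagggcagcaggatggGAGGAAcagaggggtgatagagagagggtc
C1qc (minus strand, chr4:136892915-136893164): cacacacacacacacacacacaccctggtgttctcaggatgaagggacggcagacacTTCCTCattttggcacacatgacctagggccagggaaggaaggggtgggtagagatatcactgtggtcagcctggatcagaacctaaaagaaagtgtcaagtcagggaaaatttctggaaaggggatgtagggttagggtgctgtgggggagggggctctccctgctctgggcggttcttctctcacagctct
Mrc1 (plus strand, chr2:14229164-14229413): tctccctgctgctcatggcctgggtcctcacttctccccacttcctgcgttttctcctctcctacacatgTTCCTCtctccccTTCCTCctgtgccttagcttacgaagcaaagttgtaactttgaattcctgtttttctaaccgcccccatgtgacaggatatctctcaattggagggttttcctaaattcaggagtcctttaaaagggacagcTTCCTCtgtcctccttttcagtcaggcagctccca
The C1qc window ends at a start that lies inside the gene's outer limits, so its last bases fall within the gene span given above. The C1qb window held 1 match, which began 30 bases before the start. The C1qc window held 1 match at 193 bases, and the Mrc1 window held 3, at 180, 167 and 35 bases. Of all 32851 promoter windows of this length, 7639 (23.3%) held at least 1 match, so a match is common and only describes these letters.

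At the same rank, facial spots had the higher score. The 50 spots were a smaller part of the 1096 facial than of the 365 oral spots with at least 1000 UMIs. The oral set thus reached further down its own section's ranking, which holds for every comparison of the tissues below. The lowest, median and highest score among the 50 spots were 0.516%, 0.612% and 1.01% of UMIs in facial skin and 0.203%, 0.276% and 0.753% in oral mucosa. The first spot left out stood at 0.515% in facial skin and 0.197% in oral mucosa, so both cuts ran through a continuous range. Only 6 of the 50 oral spots reached the lowest facial score. Pooled over the 50 spots the score was 0.644% of 168156 UMIs in facial skin (0.606% to 0.684%) against 0.0668% in the other 1046 spots, and 0.313% of 182870 UMIs in oral mucosa (0.288% to 0.340%) against 0.0435% in the other 315. The chosen spots were shallower than the rest, with a median of 3123.5 UMIs against 5868 in facial skin and 3425.5 against 7428 in oral mucosa. Across all spots of a section Spearman's correlation of UMIs with the score was -0.49 in facial skin and -0.46 in oral mucosa, given as a description. Of the tissue spots, 87 barcodes occurred in both day 4 sections, of which 4 were macrophage-rich on the facial side and 6 on the oral side, with no barcode macrophage-rich on both sides.

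The score was also read in UMIs that did not choose the spots. Each UMI was put at random into 1 of 2 sets, 50 spots were chosen on the first set, and 38 of them in facial skin and 41 in oral mucosa were also in the original choice. In the second set the score of the chosen spots was 0.555% in facial skin (0.505% to 0.608%) against 0.0680% in the others, and 0.291% in oral mucosa (0.257% to 0.327%) against 0.0456%. The facial level was thus lower than in the UMIs that chose the spots, and in both sections it was above that of the other spots. Each score gene was also read in spots chosen on the other 6. It was then 4.57-fold (Ms4a7) to 9.19-fold (C1qb) higher than in the rest of the facial section and 4.8-fold (C1qc) to 6.78-fold (Adgre1) higher in the oral one, so every score gene was concentrated in spots picked without it.

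The label was checked with macrophage genes outside the score, which were high in these spots. Of 20 further macrophage and monocyte genes, 20 were measured in facial skin (at least 20 UMIs over both sides) and 18 were at least 1.5-fold higher in the macrophage-rich spots with Poisson intervals apart, a difference called here for short, and none was lower. Over all 12995 genes measured in facial skin 1567 were higher (12.1%) and 770 lower (5.93%). In oral mucosa 19 of 19 were higher and none lower, against 1828 of 10352 genes higher (17.7%) and 519 lower (5.01%). These contrasts share the spots that the score chose, so the counts describe the spots and support nothing. The median log2 ratio of the list, computed with 10 CPM (counts per 1e+06 UMIs) added to both sides, was 1.95 in facial skin and 1.91 in oral mucosa, against 0.07 and 0.35 over all genes. In oral mucosa the list stood at 3446 CPM in macrophage-rich spots with under 0.1% of UMIs in neutrophil genes. It stood at 12279 CPM in those with at least 1%, while the score genes stood at 2724 and 3157 CPM. Which cells made the list's transcripts was not tested.

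Lyz2, which encodes lysozyme M of macrophages and neutrophils, held 384 UMIs in the facial spots (2284 CPM, 2061 to 2524) against 356 CPM elsewhere, and 643 in the oral spots (3516 CPM, 3249.6 to 3799) against 559. It had a UMI in 48 of 50 facial and 48 of 50 oral spots and is made by neutrophils too. Ctss, a lysosomal protease of antigen-presenting cells, stood at 630.4 against 109.6 CPM in facial skin and 782 against 113 in oral mucosa. Cd68, the lysosomal protein used to stain macrophages, was sparse, with 28 and 23 UMIs, and still stood at 167 against 29.7 CPM and 126 against 17.2. Cx3cr1 was at 0 UMIs in the facial and 4 in the oral spots. Genes of lymphocytes were near 0, as 9 of 11 T and NK cell markers had no UMI in the facial spots and 9 of 11 none in the oral spots, while for B and plasma cells these numbers were 5 and 6 of 7. Ighm, the IgM heavy chain, was the exception, with 18 facial and 3 oral UMIs.

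**Figure D1:**
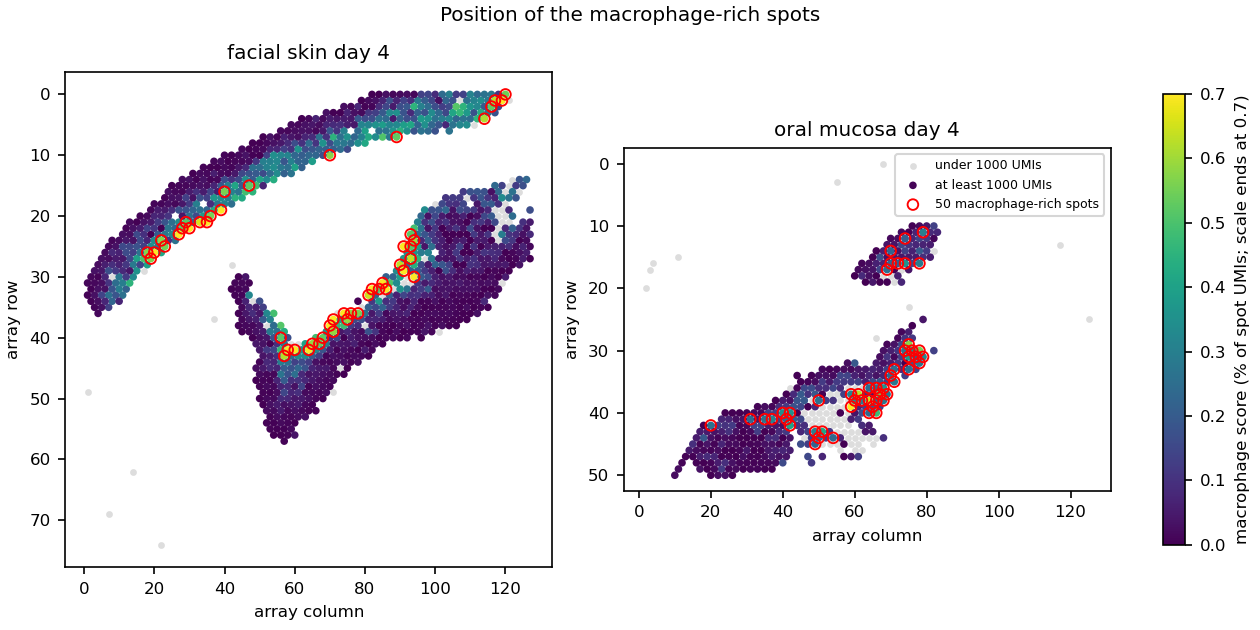
Each point is 1 tissue spot at its array column (x) and row (y), coloured by the macrophage score in percent of the spot's UMIs, with the 50 macrophage-rich spots of each section ringed in red and spots under 1000 UMIs in grey. In facial skin the ringed spots run in thin lines along an edge of both tissue pieces, and in oral mucosa they sit in clumps, the largest of 16 spots, several of them beside spots under 1000 UMIs.

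Most of the spots touched another macrophage-rich spot. In facial skin they formed 21 groups of touching spots, the largest of 5, and 9 spots stood alone, while oral mucosa had 16 groups, the largest of 16, and 9 alone. Of the neighbours of a macrophage-rich spot 29.9% were macrophage-rich in facial skin, against 2.80% of the neighbours of other spots, and in oral mucosa these shares were 41.8% and 9.27%. In facial skin 58% of the spots lacked at least 1 of 6 neighbours and so lay at an edge, against 29.8% of other spots. An edge here is that of the tissue or of the array, whose row 0 held a facial macrophage-rich spot. In oral mucosa these shares were 36% and 39.0%, so macrophage-rich spots lay at an edge more often than other spots in the facial section and not in the oral one.

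Macrophage genes led the list of genes high in both sections. The 10 genes with at least 100 UMIs in each section and the largest ratio in both were Mrc1, Ms4a6d, Csf1r, Ccr2, C1qa, Pf4, C1qc, Adgre1, Lyz2 and C1qb, of which 6 are score genes. Among those the score did not use, Ccr2, the receptor that brings monocytes out of the blood, had log2 ratios of 2.79 in facial skin (2.34 to 3.21) and 2.93 in oral mucosa (2.29 to 3.55), and Pf4, a chemokine of platelets that tissue macrophages also make, had 2.75 and 2.78. Ms4a6d, a membrane protein of the same family as Ms4a7, had 2.97 and 2.89. The 10 lowest in both were Trex2, Lce1l, Kprp, Rbp2, Lce1d, Lce1a2, Krt78, Lce1a1, Ap1m2 and Klk9, mostly genes of the cornified epidermis, and Lce1 genes are near-identical copies among which reads can be split. Of 10086 genes measured in both sections, 657 were higher in both, 180 lower in both, 31 lower in facial skin and higher in oral mucosa, and 56 the reverse. With TMM scaling, which moved all log2 ratios by -0.27 in facial skin and -0.55 in oral mucosa, 1124 genes were higher and 1218 lower in facial skin, and 725 higher and 1002 lower in oral mucosa.

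Resident macrophage genes had a median log2 ratio of 2.62 in facial skin, with 15 of 16 measured members higher and none lower. Clec10a, a sugar-binding lectin of dermal macrophages and dendritic cells, stood at 1112 against 87.9 CPM, Folr2, a folate receptor of resident macrophages, at 196 against 11.4, and Cd209f, a lectin from a family of close copies, at 214 against 16.7. In oral mucosa 10 of 12 were higher with a median of 1.53. F13a1, coagulation factor XIII-A, was high in both, at 601 against 57.0 CPM in facial skin and 279 against 57.7 in oral mucosa. Folr2 was not, with 3 UMIs in the oral spots and a log2 ratio of 0.43 (-1.92 to 2.10).

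Inflammatory monocyte genes were fewer. In facial skin 4 of 12 were higher and 1 lower, with a median log2 ratio of 0.062, close to that of all genes, and 7 of 17 listed genes had no UMI in the facial spots, among them Il1b, which encodes interleukin 1 beta. In oral mucosa 5 of 12 were higher and none lower, with a median of 1.07 that was 0.22 without the 23 spots of 1 part of the section. Of the genes of lipid-associated macrophages, which take up lipid from dead cells, 6 of 15 were higher and 2 lower in facial skin, and 9 and 1 of 15 in oral mucosa. Trem2, their lipid receptor, stood at 172 against 18.7 CPM in facial skin and 87.5 against 16.8 in oral mucosa. Fabp5, a fatty acid binding protein that keratinocytes also make, was lower in both, with log2 ratios of -1.85 and -0.69.

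Complement genes outside the score were higher for 13 of 15 members in facial skin (median log2 ratio 2.07) and 10 of 15 in oral mucosa (1.09), none being lower. Without 1 part of 22 oral spots 4 complement genes were higher in oral mucosa (median 0.64). C3, the central complement component, stood at 559 against 54.0 CPM in facial skin and 289.8 against 144 in oral mucosa, where its log2 ratio went from 1.01 to -0.058 without those spots. Genes of Fc receptors and their signalling partners were higher for 6 of 9 and 8 of 9, with medians of 1.93 and 1.73. Myeloid lectins were higher for 9 of 11 and 9 of 9, with medians of 1.93 and 1.84. In both groups no member was lower.

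Lysosomal genes were higher for 15 of 20 members in facial skin and 16 of 20 in oral mucosa, with medians of 1.40 and 1.61 and none lower. Lgmn, the protease legumain, had log2 ratios of 2.54 and 2.24, and Hexa, a subunit of hexosaminidase, 2.90 and 2.18. Of the genes for uptake of dead cells 7 of 15 and 5 of 13 were higher (medians 0.96 and 0.81), among them Msr1, a scavenger receptor, at 2.72 and 2.29, and Abca1, a cholesterol exporter, at 1.81 and 2.19. Iron and haem genes were higher for 6 of 12 and 6 of 12 (medians 0.93 and 0.82), with Ftl1, the ferritin light chain, at 2.01 and 2.34. MHC class II genes, which present antigen, were higher for 5 of 8 and 6 of 6 (medians 1.11 and 1.55).

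Genes of secreted signals and of their receptors were higher for most members in some groups and for few in others, and which cells made them was not tested. Of CC chemokines 9 of 10 were higher in facial skin and 5 of 7 in oral mucosa, with medians of 1.88 and 1.98, led by Ccl6 at 4.22 in facial skin and by Ccl2, the ligand of Ccr2, at 2.65 in oral mucosa. CXC chemokines were higher for 4 of 7 and 4 of 8 (medians 1.44 and 1.25), and myeloid chemokine receptors for 1 of 6 and 4 of 5 (medians 0.30 and 1.96). Colony-stimulating factors and cytokine receptors were higher for 8 of 10 and 9 of 11 (medians 1.24 and 1.59), and growth factors of repair for 4 of 13 and 6 of 13 (medians 0.47 and 1.06), with Vegfb lower in oral mucosa. Pdgfc and Fgf7, growth factors of fibroblasts and epithelium, had log2 ratios of 2.17 and 2.63 in facial skin and 3.63 and 3.54 in oral mucosa. Macrophage transcription factors were higher for 4 of 15 and 9 of 11 (medians 0.18 and 1.28). Spi1, which encodes PU.1, stood at 59.5 against 13.4 CPM in facial skin and 98.4 against 17.2 in oral mucosa.

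Other cell types shared the spots. Fibroblast genes were higher for 11 of 11 members in facial skin and 9 of 11 in oral mucosa (medians 1.90 and 1.79), and made up 3.36% and 1.64% of the UMIs of the macrophage-rich spots against 0.957% and 0.455% elsewhere. Their lowest, median and highest share over the 50 spots was 2.08, 2.81 and 6.65% in facial skin and 0.364, 1.46 and 6.09% in oral mucosa, so every spot held fibroblast transcripts. Mast cell genes were higher for 4 of 5 and 4 of 5 (medians 1.87 and 1.89), but without the same 22 oral spots 0 were higher in oral mucosa (median -1.30). Keratinocyte genes were lower for 10 of 10 and 9 of 11, none being higher (medians -2.19 and -1.44), with pooled shares of 0.883% against 4.71% and 1.48% against 4.17%. Early wound matrix genes were higher for 9 of 13 and 12 of 12 (medians 1.33 and 1.68), and matrix proteases and their inhibitors for 6 of 12, with 1 lower, and 9 of 11 (medians 0.82 and 1.26). How much of any shared gene came from these other cells was not tested.

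Of the remaining groups, muscle and erythrocyte genes ran in opposite directions in the 2 sections. Skeletal muscle genes were higher for 10 of 12 in facial skin (median 1.35) and lower for 11 of 12 in oral mucosa (-2.65), at 0.285% of UMIs against 0.0969% and 0.943% against 5.45%. Erythrocyte genes, whose haemoglobin members are near-identical copies, were higher for 4 of 5 (1.43) and lower for 5 of 5 (-1.44). Against oral spots low in muscle and gland markers both lists turned, to medians of 1.54 and 1.74. Those comparison spots were chosen for under 1% of UMIs in this same muscle list, and the macrophage-rich spots were not. The muscle value thus follows from that choice, and nothing is read from it. Adipocyte genes were higher for 5 of 8 in facial skin (median 1.33) and none of 3 in oral mucosa (-0.18). Salivary gland genes were higher for 3 of 5 in oral mucosa (0.90) and made up 0.00178% of UMIs in the facial spots. Muscle regeneration genes were higher for 1 of 7 and 6 of 9, with 1 lower in oral mucosa (medians 0.84 and 1.12), endothelial genes for 1 of 11 and 3 of 11 (0.28 and 0.83), and pericyte and smooth muscle genes for 4 of 8 and 1 of 8, with 1 lower in oral mucosa (0.94 and 0.31). Cell division genes were lower for 1 and higher for none of 12 in facial skin and higher for 3 of 12 in oral mucosa (-0.27 and 0.74). Glycolysis and hypoxia genes were lower for 4 of 11 in facial skin, and 1 was higher and 1 lower of 11 in oral mucosa (-0.66 and -0.034).

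**Figure D2:**
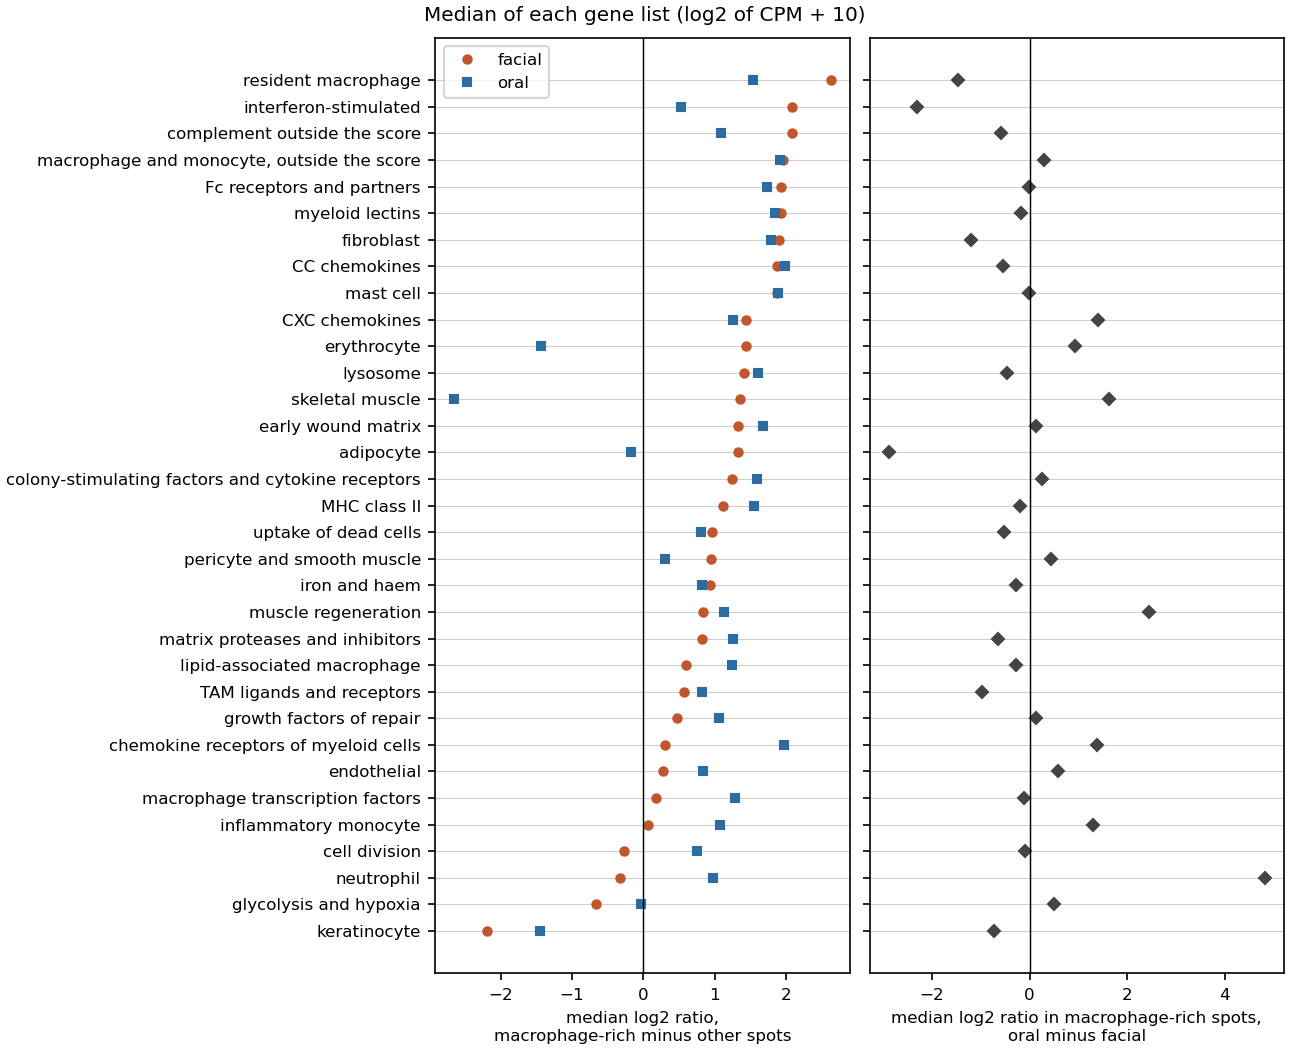
The left panel gives the median log2 ratio (10 CPM added) of each gene list for macrophage-rich minus other spots, with a circle for facial skin and a square for oral mucosa, and the right panel gives oral minus facial within the macrophage-rich spots. The macrophage lists lie right of 0 in both sections, skeletal muscle and erythrocyte genes lie on opposite sides, and the resident macrophage and interferon-stimulated lists are lower in oral spots, at -1.47 and -2.31.

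The size of these differences depended on the spots used for comparison. Against only the 103 facial spots that touched a macrophage-rich spot, 69 genes were higher in place of 1567, and against 88 such oral spots 457 in place of 1828. Against spots in the same range of UMI totals (618 facial and 186 oral) the counts were 485 and 469. The outside-score macrophage list kept 2 genes higher against touching facial spots (median 0.34) and 13 against facial spots of the same UMI range (1.08), and the resident list 8 (0.97) and 14 (1.89). The fibroblast list had 0 higher against touching facial spots (median 0.035). Fibroblast genes were thus as high beside the facial macrophage-rich spots as in them.

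**Figure D3:**
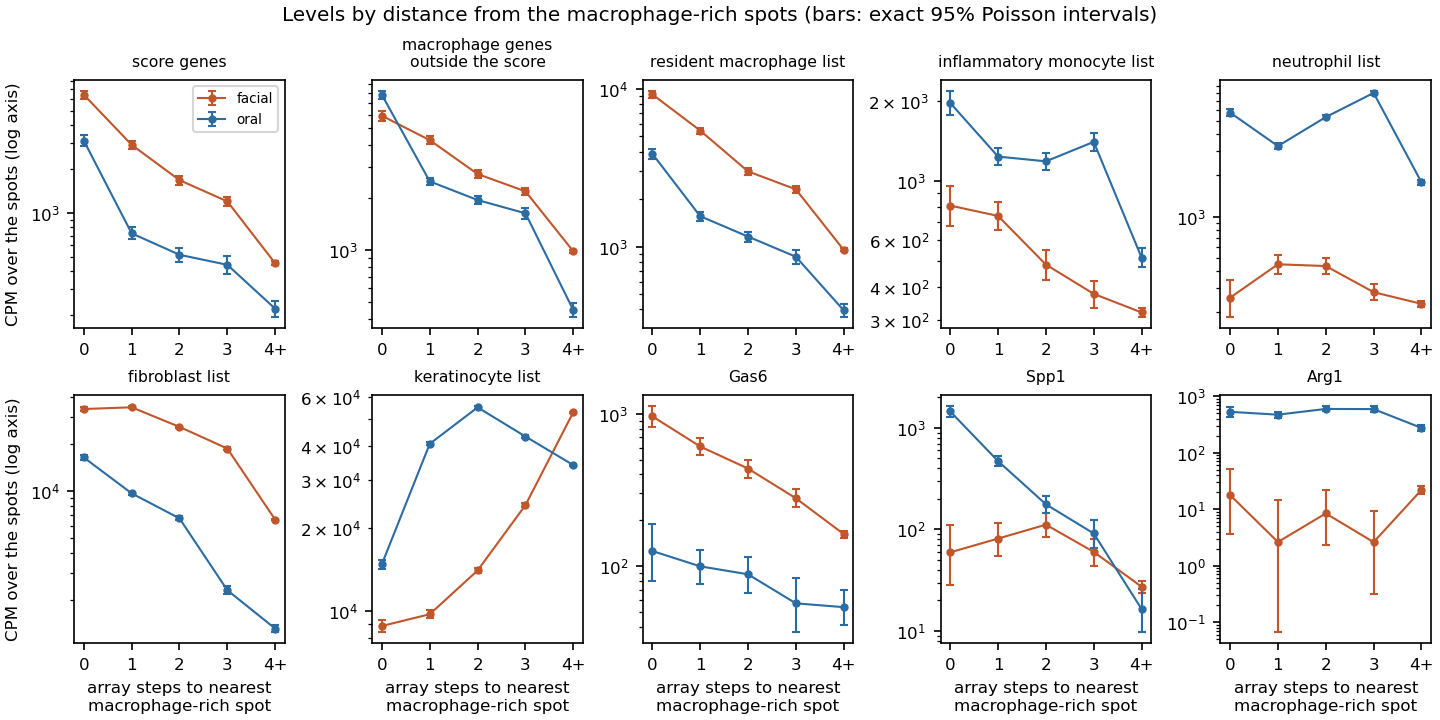
Each panel gives CPM (log axis, range differing between panels) summed over spots at 0, 1, 2, 3 or at least 4 array steps from the nearest macrophage-rich spot, facial skin in orange and oral mucosa in blue, with exact 95% Poisson intervals. Macrophage genes outside the score fall with distance in both sections, Spp1 falls steeply in oral mucosa, and Arg1 stays near 530.4 CPM for 3 steps there.

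Levels changed with distance from the chosen spots. The macrophage genes outside the score stood at 5917 CPM in the facial macrophage-rich spots, 4284 CPM 1 array step away and 980.2 CPM at 4 or more steps. In oral mucosa they stood at 7809, 2479 and 449.6 CPM, a steeper first step. Fibroblast genes were level over the first facial step, at 33618 and 34485 CPM, and reached 6572 CPM at 4 or more, while keratinocyte genes went from 8831 to 52909 CPM.

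Within the macrophage-rich spots, oral and facial tissue differed in the levels of some macrophage genes, and the facial spots also had the higher score. Of 3685 genes with at least 20 UMIs over both sets of 50 spots, 282 were higher in oral spots (7.65%) and 343 lower (9.31%), with a median log2 ratio of -0.03. Facial spots held more of the resident macrophage and interferon-stimulated genes, and oral spots held more Spp1, Arg1, Thbs1 and neutrophil genes. Of the general macrophage genes 3 of 18 were higher and none lower, with a median of 0.29. That list was higher in oral spots with more neutrophil UMIs, and in spots under 0.1% neutrophil UMIs 4 of 14 were lower in oral spots and none higher (median -1.23). The 10 highest genes in oral spots with one direction in all 16 pairs of spot groups were Krt13, Muc5b, Krt4, Slpi, Dcpp1, Muc19, Gp2, Sprr3, Cxcl5 and Bpifb2, and all but Cxcl5 are known from oral epithelium or glands. The 10 lowest were Krt1, Flg, Krt10, Gpx3, Clec10a, Hsd17b12, Lgals7, Ccl8, Ifi27l2a and Gas6. The spot groups are parts of each set of 50, cut at the middle row and the middle column of its spots, and 1 oral group held a single spot and another 4, so the 16 pairs rest in part on few spots. Among 517 genes with at least 100 UMIs, 80 were higher and 74 lower in oral spots in all 16 pairs.

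**Figure D4:**
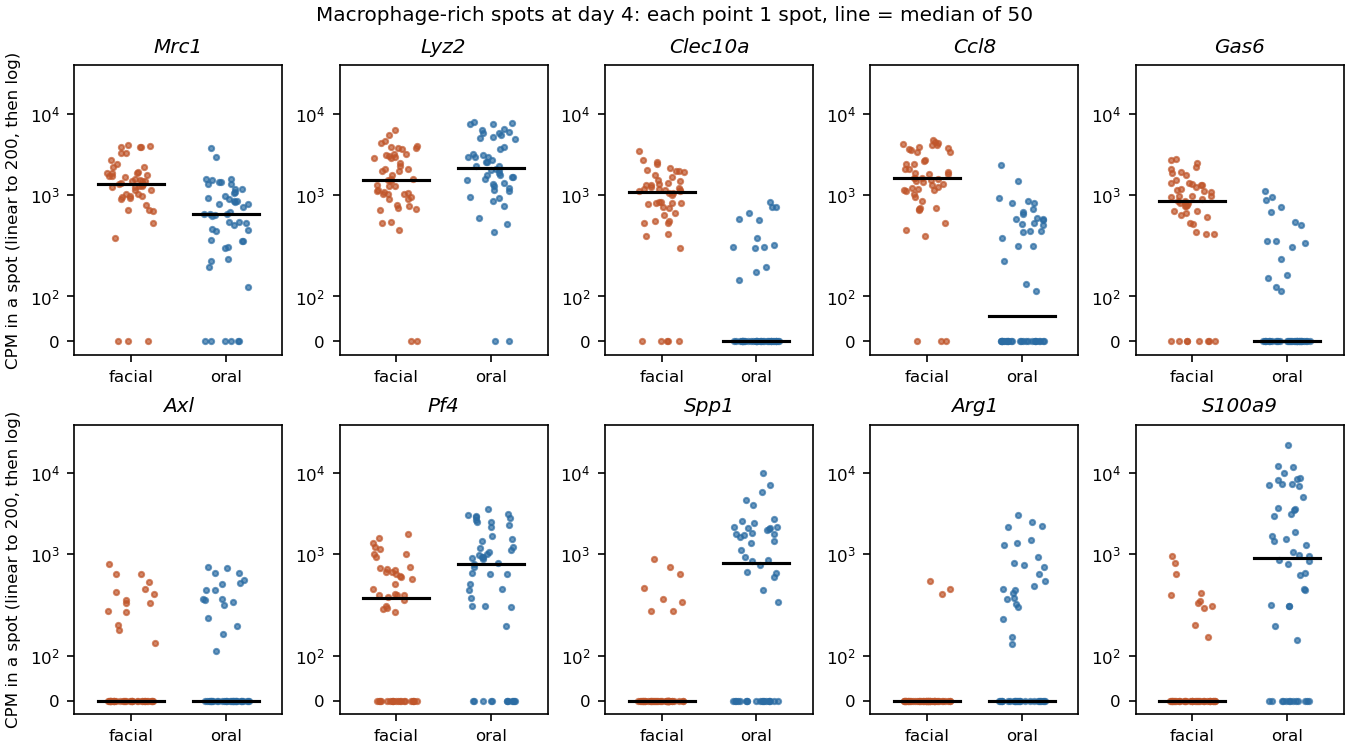
Each point is 1 macrophage-rich spot, with CPM of the gene in that spot on the y axis (linear to 200, log above) and facial and oral spots side by side, the line marking the median of 50. Clec10a, Ccl8 and Gas6 lie mostly at 0 or below the facial median in oral spots, and Spp1, Arg1 and S100a9 lie mostly at 0 in facial spots.

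The score genes themselves, whose levels the choice set, are given as a description. Over the 50 spots Mrc1 had a lowest, median and highest CPM of 0, 1378 and 4172 in facial skin and 0, 578 and 3763 in oral mucosa, C1qa 0, 1280.1 and 3973 and 0, 505 and 1776, C1qb 0, 1385 and 3425 and 0, 593 and 2532, and C1qc 0, 999 and 2708 and 0, 438 and 1882. These ranges overlapped, and the facial medians were above the oral ones. Pooled log2 ratios of oral to facial were -1.54 for Mrc1, -1.22 for C1qa, -1.05 for C1qb and -1.12 for C1qc, against -0.60 for Csf1r, -0.39 for Adgre1 and 0.10 for Ms4a7. The lower oral score thus came from Mrc1 and the C1q genes more than from the other 3.

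Resident macrophage genes were lower in oral spots for 9 of 13 measured members and higher for 1, with a median log2 ratio of -1.47, against 9.31% lower and 7.65% higher over all genes. The score was lower in the oral spots too, at 0.313% against 0.644% of UMIs. How much of the list's difference went with the score was not tested. Clec10a held 187 UMIs in the facial spots and 19 in the oral ones. Its CPM over spots ran 0, 1083 and 3451 (lowest, median, highest) in facial skin and 0, 0 and 828 in oral mucosa, where 14 of 50 spots had a UMI against 45 of 50. The pooled log2 ratio was -3.42 (-4.18 to -2.74). Ccl8, a chemokine for monocytes and other leukocytes, ran 0, 1605 and 4728 in facial and 0, 55.7 and 2372 in oral spots, with a pooled log2 ratio of -3.03 (-3.51 to -2.57). All 50 oral spots lay below the facial median for Clec10a and 49 for Ccl8, though the ranges overlapped. Folr2 had 33 facial and 3 oral UMIs (log2 ratio -3.58, -5.93 to -1.91), and Cd209f 36 and 1 (-5.29, -10.63 to -2.72). Pf4 was the member higher in oral spots, with 1274 CPM (1116 to 1449) against 452 (356 to 566).

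Per UMI of the score genes in place of per total UMI, 1351 genes were higher and 75 lower in oral spots, but that scaling adds to every log2 ratio 1 constant that the choice of spots set, so nothing is read from it. In bulk regions such as spots, fewer cells of a type and less RNA per cell cannot be told apart. The share of the list in a single spot was 0.182, 0.913 and 1.59% (lowest, median, highest) in facial and 0, 0.363 and 1.19% in oral spots. In all 50 facial spots it exceeded the share of the inflammatory monocyte list, and in oral mucosa it did so in 40 spots, with 7 the other way and 3 equal.

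Unwounded tissue gives the background of these genes. In the 50 highest-scoring spots of the unwounded sections, chosen by the same rule, Clec10a stood at 512 CPM (facial) and 29.4 CPM (oral), Ccl8 at 4003 and 64.7, and Cd209f at 405 and 35.3. Folr2 stood at 151 and 97.1. The pooled score of those spots was 0.473% in unwounded facial skin and 0.141% in unwounded oral mucosa. The section labelled unwounded facial skin held S100a9, a gene of the neutrophil list, at 706 CPM in these spots, more than the 101 CPM of the day 4 facial spots. Which cells made it was not tested.

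Interferon-stimulated genes, which cells switch on in answer to interferon, were higher in the facial spots. In facial skin 11 of 11 were higher in the macrophage-rich spots than elsewhere (median 2.08), in oral mucosa 3 of 10 (0.53), and oral spots were lower than facial ones for 7 of 10 with none higher (-2.31). Irf7, the transcription factor of the type I interferon response, had 37 UMIs in the facial and 2 in the oral spots (log2 ratio -4.33, -7.43 to -2.38). Isg15, a ubiquitin-like protein of that response, had 22 and 0, at least 7.97-fold lower in oral spots against a floor of 3 UMIs. Ifi27l2a ran 0, 666 and 3389 CPM in facial and 0, 0 and 844 in oral spots (lowest, median, highest), with UMIs in 41 and 16 spots. Without the 15 spots of 1 of the 4 parts of the facial set 4 members were still measured, of which 1 was lower in oral spots, with a median of -1.28. Against touching facial spots 0 interferon genes were higher (median 0.42).

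Spp1, Arg1 and Thbs1 were higher in oral spots. Spp1, which encodes osteopontin, held 266 UMIs in the oral spots and 10 in the facial ones. Its CPM ran 0, 779 and 9946 (lowest, median, highest) over oral and 0, 0 and 882 over facial spots, and 31 oral against 8 facial spots had a UMI. The pooled log2 ratio was 4.61 (3.71 to 5.69). Arg1, arginase 1 of wound macrophages, had 97 and 3 UMIs (4.89, 3.30 to 7.20) and was seen in 24 and 3 spots. Thbs1, thrombospondin 1, had 94 and 6 (3.85, 2.67 to 5.33) and was seen in 28 and 6 spots. Il1b had 48 oral UMIs and none in the facial spots, at least 14.7-fold higher against the floor of 3 UMIs. The inflammatory monocyte list as a whole had 3 of 7 members higher and 1 lower, the lower one being Plac8 (-1.93). Ccr2 of the same list was not called, at -0.71 (-1.38 to -0.052). Without the 23 spots of 1 part of the oral set the list's median went from 1.29 to -0.42, and the log2 ratios were 4.07 for Spp1, 2.55 for Arg1, 4.02 for Thbs1 and 0.74 for Pf4.

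Spp1 and Thbs1 were concentrated in the oral macrophage-rich spots and Arg1 was not. Spp1 stood at 1455 CPM there against 165 in the other oral spots and Thbs1 at 514 against 146, while Arg1 stood at 530.4 against 443, a log2 ratio of 0.26 (-0.053 to 0.56). By distance, oral Spp1 went from 1455 CPM in the chosen spots to 471, 177, 91.2 and 16.4 CPM with each step. Arg1 stood at 530.4, 473, 597, 593 and 275 CPM over the same steps, with no peak at the macrophage-rich spots.

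Neutrophil transcripts moved with this result. Of 4 neutrophil genes measured, all 4 were higher in the oral than in the facial macrophage-rich spots, with a median of 4.83, and the list made up 0, 0.301 and 2.96% of UMIs over oral spots (lowest, median, highest) and 0, 0 and 0.172% over facial ones. S100a8 and S100a9, the subunits of calprotectin, had 387 and 532 oral UMIs against 10 and 17 facial ones, and 8 of 12 listed genes had no facial UMI. The 50 oral spots held 15 with under 0.1% neutrophil UMIs, 24 with 0.1% to under 1% and 11 with at least 1%, and 48 of the 50 facial spots were under 0.1%. These limits were set after the values were seen. Neutrophil UMIs here are those of the listed genes, among which S100a8 and S100a9 weigh heavily. S100a9 alone held 397 UMIs in the 11 oral spots with at least 1%. Which cells made these transcripts was not tested.

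Spp1, Pf4, Thbs1 and Il1b were higher in oral spots with more neutrophil UMIs. Spp1 stood at 55.6 CPM (11.5 to 162) in the 15 low oral spots, 1904 (1624 to 2219) in the 24 intermediate ones and 2315 (1882 to 2819) in the 11 high ones, and the level over the facial spots was 59.5 CPM. Pf4 stood at 278, 1405 and 2269 CPM, Thbs1 at 55.6, 755 and 608, and Il1b at 0, 128 and 865. Spp1 and Thbs1 were already high in the intermediate spots, while Arg1, at 148, 209 and 1661 CPM, was high in the 11 spots with most neutrophil UMIs. Clec10a ran the other way, at 185, 104 and 0 CPM. The score genes stood at 2724, 3367 and 3157 CPM. Of the 50 oral spots 29 had UMIs of both Spp1 and S100a9, 2 had Spp1 alone, 8 had S100a9 alone and 11 had neither.

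Restricting both tissues to spots under 0.1% neutrophil UMIs (48 facial, 15 oral) changed which genes differed. The log2 ratio of oral to facial was then 0.021 for Spp1, 0.87 for Thbs1, -0.73 for Pf4 and -0.53 for Lyz2, against 4.61, 3.85, 1.5 and 0.62 over all spots, while Arg1 was at 3.02 on 8 oral UMIs. Spp1 there rested on 3 oral and 9 facial UMIs and Thbs1 on 3 and 5, too few to fix either ratio. Clec10a and Ccl8 were at -2.61 and -1.98, so they were lower in oral spots there too, while the resident list went from 9 of 13 lower to 4 of 13 (median -0.79). The macrophage genes outside the score stood at 3446, 8324 and 12279 CPM in oral spots by rising neutrophil share. In the facial spots under 0.1% they stood at 5904 CPM. In spots under 0.1% the score genes stood at 6464 CPM in facial and 2724 in oral tissue, and the resident list at 9270 and 3872. There the resident list was thus lower in oral spots along with the other macrophage genes. Whether neutrophils, macrophages beside them or another cell made Spp1, Thbs1, Pf4 and Il1b cannot be told apart in spots.

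Gas6, the ligand of the receptors Axl, Mertk and Tyro3 through which phagocytes bind dying cells, was high in the facial macrophage-rich spots and sparse in the oral ones. Over facial spots its CPM ran 0, 837 and 2782 (lowest, median, highest), with UMIs in 42 of 50, and over oral spots 0, 0 and 1118, with UMIs in 16 of 50. The ranges overlapped, and 47 of 50 oral spots lay below the facial median. In facial skin Gas6 was at 963 CPM (821 to 1124) against 203 in other spots, and in oral mucosa at 126 (79.7 to 189) against 72.4. The log2 ratio of oral to facial in the macrophage-rich spots was -2.94 (-3.64 to -2.30), against -1.49 in the other spots, a difference of -1.45 (-2.12 to -0.79, approximate interval). With distance facial Gas6 went from 963 to 611, 437, 279 and 162 CPM, and oral Gas6 from 126 to 99.8, 88.4, 57.0 and 53.8 CPM. Fibroblast genes were also lower in the oral than in the facial spots, at 1.64% against 3.36% of UMIs, and their part in the Gas6 difference was not tested.

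Pros1, the second ligand of these receptors, was higher in the macrophage-rich spots of both tissues, at 202 against 48.5 CPM in facial skin and 98.4 against 35.5 in oral mucosa. Axl was not called between the tissues, with 16 facial and 26 oral UMIs and a log2 ratio of 0.58 (-0.37 to 1.58). It was called against other spots in oral mucosa (1.02, 0.37 to 1.62) and not in facial skin (0.65, -0.17 to 1.36). Mertk had 1 and 2 UMIs and Tyro3 1 and 3, at or below the 3 UMIs that a count of 0 allows, so a difference was not detectable at this depth. Over the whole TAM group 2 of 5 were higher in facial skin and 2 of 4 in oral mucosa (medians 0.57 and 0.83), and 1 of 3 was lower in oral spots (-0.97). UMIs of Gas6 and Axl occurred together in 13 facial and 6 oral spots. Gas6 alone was seen in 29 facial and 10 oral spots, Axl alone in 2 and 12, and neither in 6 and 22. Whether the genes shared spots more often than unrelated genes would was not tested.

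**Figure D5:**
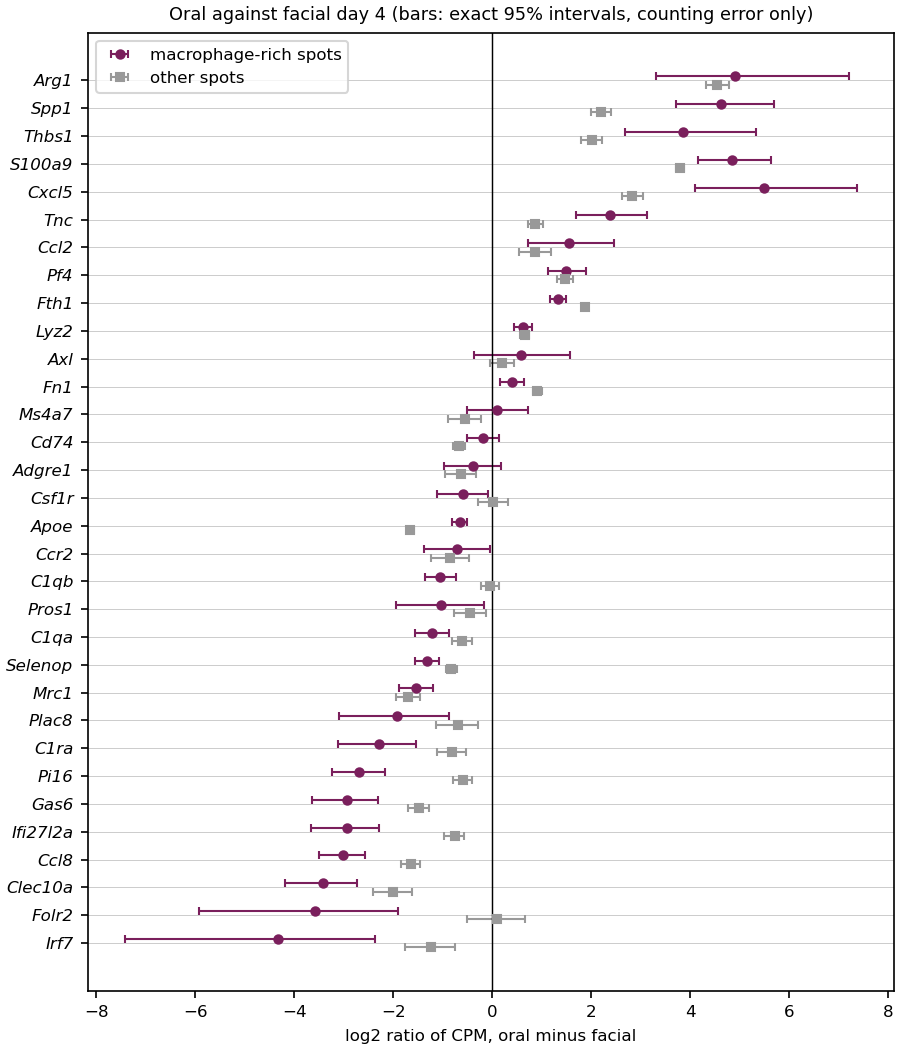
Log2 ratios of CPM, oral minus facial, are shown for genes of the score and of the lists, with circles for the macrophage-rich spots, squares for the other spots and exact 95% intervals for counting error. Spp1, Thbs1 and Cxcl5 lie farther right in the macrophage-rich spots than in the other spots, Gas6, Clec10a, Ccl8 and Folr2 farther left, and Pf4 at nearly the same place in both.

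The other myeloid groups are given for all 100 spots and, where the count moved, in spots under 0.1% neutrophil UMIs or with 100 spots per section. Complement genes outside the score were lower in oral spots for 5 of 13 with none higher (-0.58) and for 1 of 11 in low-neutrophil spots, led by C1ra, a protease of the C1 complex, at -2.29 (-3.12 to -1.54). Lysosomal genes were lower for 5 of 20 with none higher (-0.46), for 13 of 18 in low-neutrophil spots and for 12 of 20 with 100 spots per section, among them Npc2, a cholesterol carrier, at -1.72. MHC class II genes were called for none of 5 (-0.19), though 4 of 6 were lower with 100 spots per section. Fc receptor genes were called for none of 6 (-0.0068), and 1 of 3 was lower in low-neutrophil spots. Of myeloid lectins 1 was higher and 2 lower of 8 (-0.17), the higher being Clec4d at 3.79 (1.81 to 6.90). Lipid-associated genes had 1 higher, Spp1, and 2 lower of 14 (-0.28), namely Lpl, lipoprotein lipase, at -1.81 and Apoe, apolipoprotein E, at -0.66, and in low-neutrophil spots 5 of 11 were lower.

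Among chemokines, Cxcl5, an attractant of neutrophils, had 194 oral and 4 facial UMIs (5.48, 4.10 to 7.37) and was seen in 31 and 4 spots. CXC chemokines were higher for 3 and lower for 2 of 6 (1.41), and CC chemokines higher for 1, Ccl2 at 1.55 (0.72 to 2.46), and lower for 1, Ccl8, of 6 (-0.54). In low-neutrophil spots CXC chemokines were higher for 0 and lower for 2 of 3 (-1.09) and Ccl2 was at -0.81. Myeloid chemokine receptors were higher for 1 of 3 (1.39), Ccr1 at 2.69, and cytokine receptors for 1 of 9 (0.25), Tgfbr1, a receptor of transforming growth factor beta, at 2.13 (0.54 to 4.14). Growth factors were lower for 2 of 6 with none higher (0.12), namely Igf1, insulin-like growth factor 1, at -1.55 and Grn, progranulin, at -0.83. Iron genes were higher for 2, Fth1 at 1.32 and Ftl1 at 0.90, and lower for 1 of 8 (-0.28), and Ftl1 was lower, at -0.61, in low-neutrophil spots. Genes for uptake of dead cells were higher for 1 of 9 (-0.52), Anxa1 at 1.72, and macrophage transcription factors lower for 2 of 9 (-0.11).

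The neighbours of the macrophages differed as well. Fibroblast genes were lower in oral spots for 8 of 11 with none higher (-1.19), led by Pi16, a marker of adventitial fibroblasts, at -2.69 (-3.24 to -2.18). Early wound matrix genes were higher for 3 and lower for 2 of 11 (0.13), with Tnc, tenascin C, at 2.37 (1.69 to 3.11) and Cthrc1 at -1.91, and proteases and inhibitors had 1 higher and 1 lower of 7 (-0.66). Muscle genes were higher for 10 of 10 (1.63), muscle regeneration genes for 4 of 5 (2.45) and salivary gland genes for all 3 of 3 (6.85), and keratinocyte genes had 3 higher and 7 lower of 12 (-0.72). Adipocyte genes were lower for all 4 of 4 (-2.89), mast cell genes were called for none of 4 (-0.0042), and cell division genes for none of 8 (-0.090). Endothelial genes were higher for 1 of 4 (0.58), pericyte genes for 2 with 1 lower of 4 (0.43), erythrocyte genes for 3 of 4 (0.92) and glycolysis genes for 4 of 8 (0.51).

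Some genes differed between the tissues outside the macrophage-rich spots too. For each of 3647 genes the oral to facial log2 ratio of the macrophage-rich spots was set against that of the other spots, and it was higher for 784 (21.5%) and lower for 342 (9.38%), by at least 1.5-fold with an approximate interval apart from 0. Spp1 was 2.42 (1.49 to 3.35) higher on the log2 scale and Cxcl5 2.66 (1.21 to 4.10), while Pf4 differed by 0.028 (-0.38 to 0.44) and Arg1 by 0.35 (-1.32 to 2.02). The difference was -3.68 (-5.47 to -1.88) for Folr2, -1.38 (-1.87 to -0.89) for Ccl8, -1.41 (-2.19 to -0.63) for Clec10a and 0.16 (-0.24 to 0.57) for Mrc1. It was -2.37 (-2.89 to -1.85) for C3, which outside the macrophage-rich spots stood at 144 CPM in oral mucosa and 54.0 in facial skin.

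The genes most like the score across all spots of both sections were Ctsb, Lyz2, Sparc, Col1a1, Col1a2, Col3a1, Fn1, Psap, B2m and Vim, by the lower of the 2 Spearman correlations of spot CPM with the score over 1096 facial and 365 oral spots. Ctsb, the protease cathepsin B, had 0.75 in facial skin and 0.68 in oral mucosa, Lyz2 0.64 and 0.64, and Col1a1, the main collagen of connective tissue, 0.77 and 0.62. Mrc1, which is part of the score, had 0.76 and 0.65. Gas6 had 0.40 (facial) and -0.0036 (oral), and Axl 0.053 and 0.11. The spots share a library, depth and tissue layer, so these values are descriptions.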

How the data were processed

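Spatial transcriptomes of 4 sections (unwounded and postoperative day 4, facial skin and oral mucosa, 1 section each) were used as the deposited filtered matrices of UMI counts per gene and spot. Per the file headers they came from Space Ranger 1.3.1, and per the submitters' processing notes reads were mapped to mm10 and Seurat was used. Counts were summed over spots and scaled here to counts per 1e+06 UMIs (CPM). Log2 ratios and percent of UMIs were computed here from those deposited counts. A gene needed at least 20 UMIs over both sides, and a call needed 1.5-fold with exact 95% Poisson intervals apart. With 1 section per group no test was run, and depth limits each value as its interval shows, for counting error only. Of 38 symbols shared by more than 1 gene the first was used, and 2 of 418 listed genes were not found. Day 4 macrophage-rich spots held 168156 (facial) and 182870 (oral) UMIs. The 40 lists, the spots and the rule for named genes (score and TAM genes, up to 4 members a list with the largest log2 ratio, 10 highest and lowest genes) were chosen with earlier results of these data known. Other names, such as Cd68, Cx3cr1, Ighm, Fabp5, Vegfb, Spi1 and Ccl6, and the neutrophil tiers were chosen after their values were seen. Alternatives were the number and depth of spots, the score's genes, scaling (TMM, edgeR 4.0.16), the comparison spots, gene minimum, and parts of each set left out. Coordinates and promoters are from RefSeq GRCm38.p6. The code was tested on simulated data. Tools were Python 3.11.15, numpy 2.4.6, scipy 1.17.1, pandas 2.3.3 and R 4.3.3.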

Additional observations from a re-analysis of the deposited data

Results flagged for a closer look

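Some genes lay above the other spots in one section and below them in the other, by calls in opposite directions. The difference between sections was not tested, since there was 1 section per tissue, and each value is the oral minus the facial log2 ratio of macrophage-rich to other spots. Skeletal muscle genes were higher than elsewhere in the facial and lower in the oral spots. The value was -3.98 for Acta1, -4.35 for Ckm, -2.08 for Myh1, -4.54 for Mb, -4.18 for Tnnt3, -4.61 for Tnni2, -4.09 for Mylpf, -3.98 for Actn3, -4.59 for Tnnc2 and -3.52 for Ttn, and Des, which smooth muscle also makes, had -3.22. Haemoglobin genes, whose copies share reads, ran the same way, with -3.03 for Hba-a1, -3.04 for Hba-a2, -2.89 for Hbb-bs and -3.09 for Hbb-bt. The opposite direction was seen for Lgals3, galectin 3 of macrophages and epithelium, at 1.54, for Mki67, a gene of dividing cells, at 2.33, and for Eno1, a glycolytic enzyme, at 2.44.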

How the results depend on the processing

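Each section is 1 sample, so the counts cover counting error only, and genes with few UMIs (Arg1, Folr2, Cd209f and Irf7 in 1 tissue) have wide intervals. No paired analysis was possible because each group held 1 section. The count of genes higher in facial macrophage-rich spots was 1567, and it was 2387 with 100 spots per section, 1010 when spots were chosen on 1 of 2 random sets of UMIs, 921 with the mean of spot CPM, 69 against adjacent spots and 485 against spots of the same UMI range. The oral count was 1828, and it was 1046 on 1 of 2 sets of UMIs, 725 with TMM, 1015 with genes of at least 100 UMIs, 457 against adjacent spots, 469 against spots of the same UMI range and 1119 against spots low in muscle and gland markers. The count between tissues was 625, and it was 300 with 25 spots, 1382 with 100 spots, 327 on 1 of 2 sets of UMIs, 240 with genes of at least 100 UMIs, 1426 per score gene UMI, and, chosen after seeing the data, 369 in spots low in muscle, gland and keratinocyte markers and 365 in spots low in neutrophil markers. Smaller sets of spots, UMIs or genes give fewer calls by construction, and otherwise the cause was not tested. Leaving out 1 of 4 parts of the spots gave 1322 to 1427 facial, 1314 to 1807 oral and 449 to 623 between tissues. Of 5399 gene values under alternatives 4176 stayed within the limit for a shift, 1158 moved beyond it and 65 turned sign. Of 2406 list medians these numbers were 2110, 264 and 32. The limit was the counting interval of the ratio for genes and a fixed 1.5-fold shift for list medians, which have no counting interval. A turn of sign was counted only for genes called in the main setting and for lists whose main median was at least 1.5-fold. Other changes of sign are not among the 65 and 32. Log2 values counted as turned follow. Settings low in a marker list chose spots by that same list, so its own genes, such as the muscle genes, shift by that choice. Otherwise the cause was not tested. With 25 spots per section, Mb -0.25, Hbb-bt -0.32 for facial macrophage-rich against other spots, and inflammatory monocyte -0.15 for oral against facial macrophage-rich spots. With 100 spots per section, keratinocyte 0.077 for oral against facial macrophage-rich spots. With the score of the 3 C1q genes, Hbb-bt -0.17 for facial macrophage-rich against other spots. With the mean of spot CPM, salivary gland -0.12 for oral macrophage-rich against other spots. With no gene minimum, CXC chemokines -0.044 for facial macrophage-rich against other spots, and TAM ligands and receptors 0.39 for oral against facial macrophage-rich spots. Against adjacent spots, Ccl2 -0.028, Lpl -0.14, Cthrc1 -0.34, Col1a1 -0.19, Fn1 -0.029, Lgals3 0.31, Des -0.56, Acta1 -0.68, Ckm -0.77, Myh1 -0.89, Mb -1.16, Tnnt3 -0.93, Tnni2 -0.50, Mylpf -0.51, Tnnc2 -0.63, Ttn -0.90, mast cell -0.16, pericyte and smooth muscle -0.53, skeletal muscle -0.80, adipocyte -0.47, CXC chemokines -0.15, colony-stimulating factors and cytokine receptors -0.022, early wound matrix -0.33, matrix proteases and inhibitors -0.20 for facial macrophage-rich against other spots, and Hba-a1 0.021, Hba-a2 0.58, Hbb-bs 0.088, Hbb-bt 0.65, erythrocyte 0.33 for oral macrophage-rich against other spots. Against spots of the same UMI range, S100a9 -0.047, neutrophil -0.047, salivary gland -0.65 for oral macrophage-rich against other spots. Against spots low in muscle and gland markers, Il1b -0.0015, S100a9 -0.46, Lgals3 -0.026, Des 1.91, Acta1 1.58, Ckm 1.5, Myh1 2.72, Mb 1.53, Tnnt3 1.62, Tnni2 1.55, Mylpf 1.43, Actn3 0.75, Tnnc2 1.89, Ttn 2.10, Hba-a1 1.89, Hba-a2 1.69, Hbb-bs 1.59, Hbb-bt 1.87, skeletal muscle 1.54, erythrocyte 1.74, cell division -0.047 for oral macrophage-rich against other spots. Per score gene UMI, C3 0.094, Apoe 0.38, Grn 0.21, Ctsb 0.14, keratinocyte 0.31, TAM ligands and receptors 0.0034, matrix proteases and inhibitors 0.35 for oral against facial macrophage-rich spots. In spots low in muscle and gland markers, Myh1 -0.88 for oral against facial macrophage-rich spots. In spots low in muscle, gland and keratinocyte markers, Myh1 -2.90, Tnni2 -0.47, Tnnc2 -0.17 for oral against facial macrophage-rich spots. In spots low in neutrophil markers, Lyz2 -0.53, Pf4 -0.73, C3 0.21, Ftl1 -0.61, Ccl2 -0.81, Hba-a1 -0.54, Hbb-bs -0.084, Hbb-bt -0.96, inflammatory monocyte -0.52, erythrocyte -0.73, CXC chemokines -1.09, matrix proteases and inhibitors 0.038 for oral against facial macrophage-rich spots. Leaving out 1 part of the spots in turn gave CXC chemokines -0.084 to 1.61, Ckm -0.53 to 1.98, muscle regeneration -0.057 to 1.16, Hbb-bt -0.37 to 2.43 for facial macrophage-rich against other spots, and C3 -0.058 to 1.61, mast cell -1.30 to 2.93, salivary gland -0.048 to 1.71, Schwann cell -0.19 to 0.98, Il1b -0.57 to 1.72, S100a9 -1.08 to 1.21, Lgals3 -0.050 to 1.15, Eno1 -0.43 to 1.43 for oral macrophage-rich against other spots, and inflammatory monocyte -0.42 to 1.82 for oral against facial macrophage-rich spots.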
